A study of Arabidopsis thaliana with 6 samples.

Results

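The jasmonate genes described here are 42 of the 24292 Arabidopsis genes in the table of counts. They were chosen by their identifiers, as a list of known genes of jasmonate synthesis (14 genes), catabolism (7), signaling (19) and output (2). Their transcripts were measured by RNA-seq in 6 libraries of dissected shoot apices, each made from 0.5 g of tissue of 6-week-old plants kept at 22 °C in short days (SD, 8 h light and 16 h dark). There were 2 libraries each of *val1*, which carries the insertion allele *val1-2* of the B3-domain repressor gene *VAL1*, of *val2*, which carries the insertion allele *val2-1* of its paralog *VAL2*, and of WT, the accession Col-0 that is the background of the study. Each mutant is therefore represented by a single allele.

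Jasmonate is made from linolenic acid. Lipoxygenases, an allene oxide synthase and allene oxide cyclases in the plastid give the cyclic precursor OPDA, a reductase and beta-oxidation in the peroxisome shorten it, and *JAR1* joins the acid to isoleucine to give the active hormone. The F-box receptor *COI1* binds this conjugate together with JAZ repressors and sends them to degradation, which frees MYC-type bHLH activators. JAZ genes, genes of synthesis and genes of catabolism are themselves known targets of the freed activators, so that transcripts of repressors and of enzymes that remove the hormone are used as readouts of the pathway, which in leaves answers to wounding and touch.

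The labels were first compared with the genes they name. *VAL1* had 12.5 and 15.7 CPM (read counts divided by the TMM-scaled library size) in *val1*, against 40.3 and 55.4 CPM in WT. *VAL2* had 149.8 and 163.9 CPM in the libraries labelled *val2*, against 39.9 and 40.9 CPM in WT. It was thus higher, not lower, in these libraries, so that any direction given for them is that of the libraries labelled *val2*. The tissue was labelled as meristem. Of its markers, *STM* had between 58.0 and 70.7 CPM and *CLV3* at most 0.195 CPM in the 6 libraries, whereas the leaf gene *RBCS1A* had between 2750 and 4008 CPM. The 4 meristem markers found in the counts, with *KNAT1* and *KNAT6* beside these 2, together held between 123.5 and 152.3 CPM, and 3 of them passed the filter on low counts. A leaf transcript was thus abundant in every library, and of the meristem markers *STM* was present while the stem cell marker *CLV3* was nearly absent. In such bulk samples fewer cells of a type and less RNA per cell cannot be told apart. The libraries held between 22635808 and 33474422 counts, and 21140 genes, 41 of the 42 jasmonate genes among them, passed the filter on low counts.

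Promoter sequences are shown for 5 jasmonate genes because they hold the binding motifs of the 2 kinds of factor that the design and the pathway bring in. The G-box, CACGTG, is bound by MYC-type bHLH activators, and the RY motif, TGCATG, is bound by B3 domains such as those of *VAL1* and *VAL2*. Each sequence is the 250 bases before the annotated gene start on the plus strand of the RefSeq TAIR10.1 assembly, with the motif in capitals on whichever strand it was found. *JAZ3* (chr3:6119457-6119706), *JAZ7* (chr2:14572780-14573029) and *JAZ8* (chr1:10596102-10596351) are repressor genes that fell in *val1* and have a G-box.
JAZ3: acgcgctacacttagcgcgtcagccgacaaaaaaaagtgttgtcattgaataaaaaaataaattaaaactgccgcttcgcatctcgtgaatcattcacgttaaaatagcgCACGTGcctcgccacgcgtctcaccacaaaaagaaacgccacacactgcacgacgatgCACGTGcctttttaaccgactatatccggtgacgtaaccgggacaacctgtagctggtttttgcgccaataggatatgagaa
JAZ7: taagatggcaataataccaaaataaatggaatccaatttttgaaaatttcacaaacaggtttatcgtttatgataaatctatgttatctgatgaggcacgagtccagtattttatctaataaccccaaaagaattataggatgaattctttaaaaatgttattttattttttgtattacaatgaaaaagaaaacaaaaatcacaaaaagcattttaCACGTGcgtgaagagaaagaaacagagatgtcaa
JAZ8: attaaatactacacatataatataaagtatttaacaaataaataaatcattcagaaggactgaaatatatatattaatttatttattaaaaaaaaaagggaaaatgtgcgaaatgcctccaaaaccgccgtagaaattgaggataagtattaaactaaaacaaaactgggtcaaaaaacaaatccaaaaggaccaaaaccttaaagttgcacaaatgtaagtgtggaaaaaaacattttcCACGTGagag
*LOX2* (chr3:16524995-16525244) and *AOC3* (chr3:9408910-9409159) are synthesis genes with an RY motif, and only the second of them fell in *val1*.
LOX2: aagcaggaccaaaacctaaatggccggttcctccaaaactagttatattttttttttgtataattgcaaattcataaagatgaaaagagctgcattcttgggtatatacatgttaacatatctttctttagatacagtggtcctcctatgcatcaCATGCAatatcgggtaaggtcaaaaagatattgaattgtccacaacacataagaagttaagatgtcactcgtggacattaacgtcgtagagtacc
AOC3: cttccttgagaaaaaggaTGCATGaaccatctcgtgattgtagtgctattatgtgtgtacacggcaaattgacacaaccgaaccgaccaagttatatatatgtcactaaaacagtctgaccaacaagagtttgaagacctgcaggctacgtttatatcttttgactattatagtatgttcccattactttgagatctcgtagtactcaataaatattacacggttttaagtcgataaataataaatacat
In *JAZ3* the G-boxes began 140 and 82 bases before the gene start, in *JAZ7* 34 bases and in *JAZ8* 10 bases before it. The RY motif of *LOX2* began 95 bases and that of *AOC3* 232 bases before the start. Both strands were searched, the 2 motifs share no match, and a match is a run of letters, not a measured binding site.

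In a window of 250 bases before to 50 bases after the gene start, a G-box was present in 7 of the 42 jasmonate genes (16.7%), against 7.68% of the 27443 protein-coding genes of the annotation. The 7 genes were *AOS*, *ACX1*, *JOX1*, *JAZ2*, *JAZ3*, *JAZ7* and *JAZ8*. An RY motif was present in 5 of the 42 (11.9%), namely *LOX2*, *AOC3*, *JMT*, *JOX3* and *JAZ11*, against 9.72% of all protein-coding genes. In the 1000 bases upstream, a window added after the first results were seen, a G-box was found for 10 of the 19 signaling genes (52.6%) and 3 of the 14 synthesis genes (21.4%). It was found for 1 of the 7 catabolism genes (14.3%) and 0 of the 2 output genes, against 14.8% of all genes. An RY motif was found there for 16 of the 42 (38.1%), against 32.2%. No test was made of these shares.

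In *val1*, most jasmonate genes were lower than in WT. A gene was called where edgeR's quasi-likelihood test gave an adjusted p below 0.05 (Benjamini-Hochberg, over all genes tested) and the difference was at least 2-fold. By this rule 29 of the 41 tested genes fell in *val1*, where 9.81% of all genes tested did, and 1 rose, *MYC4*, where 5.89% of all genes did. By adjusted p alone 30 were lower, where 22.1% of all genes were, and 3 were higher, where 23.6% were. The median log2 fold change of the 41 genes was -1.45, beside a median of 0.04 over all genes tested. Both *val1* libraries lay below both WT libraries in 30 of the 41 genes, where they did in 34.3% of all genes tested. The jasmonate genes took 0.557% and 0.58% of the counts of the *val1* libraries, 1.23% and 1.34% in the libraries labelled *val2*, and 1.43% and 1.55% in WT. The shares of the 3 genotypes did not overlap, and those of *val1* stood far below the rest.

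**Figure D1:**
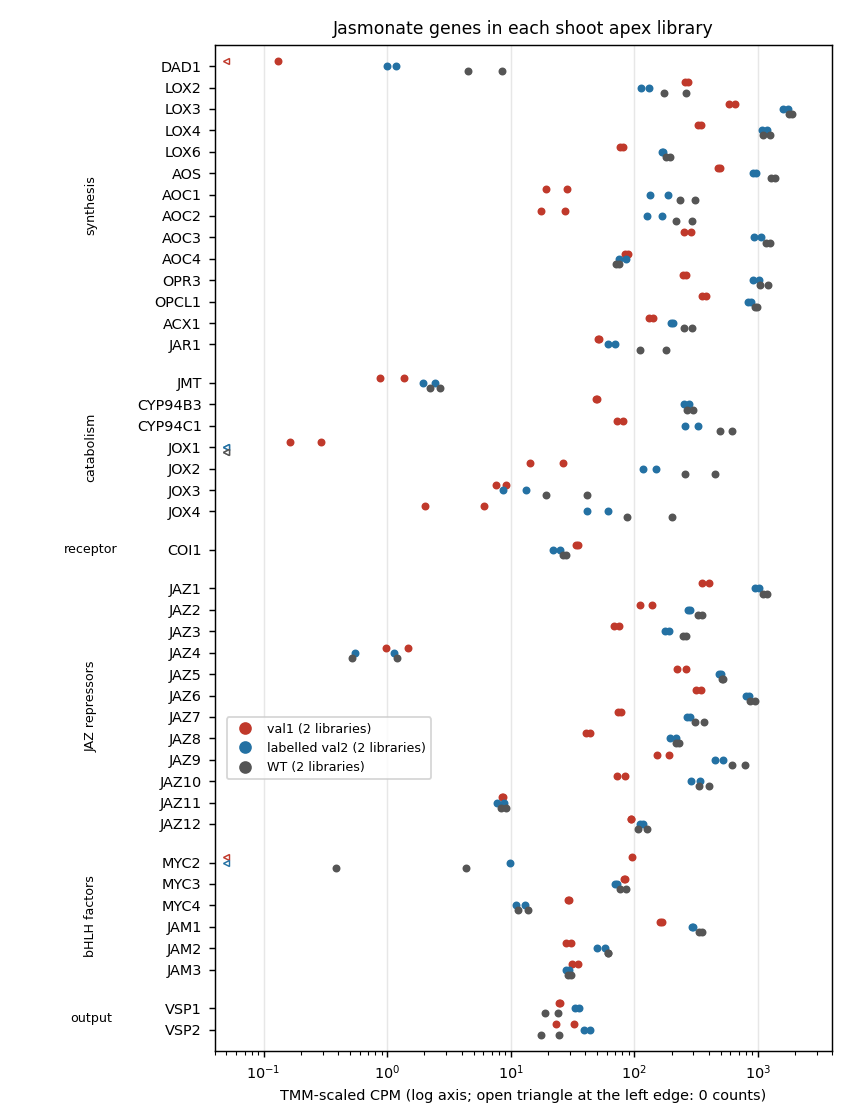
CPM of the 42 jasmonate genes in each of the 6 libraries, on a log axis, with genes in rows ordered by role and points coloured by genotype (*val1*, labelled *val2*, WT). In most rows of synthesis, catabolism and JAZ genes the *val1* points lie left of both other genotypes, whereas *LOX2*, *AOC4*, *JOX1*, *JOX3*, *JAZ4* and *JAZ11* depart from this.

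The classes of the pathway were then set side by side. Of the 14 synthesis genes 12 fell in *val1*, with a median log2 fold change of -1.55 over the 14. All 6 tested catabolism genes fell, with a median of -2.68. Of the 19 signaling genes 11 fell and 1 rose, with a median of -1.06. Synthesis thus fell in nearly every gene, while in signaling the falls were those of 9 of the 12 JAZ genes, whose median was -1.53, and of 2 bHLH genes. The receptor gene *COI1* and the activator genes *MYC3* and *MYC4* did not fall, and no direction could be given for *MYC2*. The genes of a class are not replicates, so that these counts and medians describe the classes and carry no test.

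**Figure D2:**
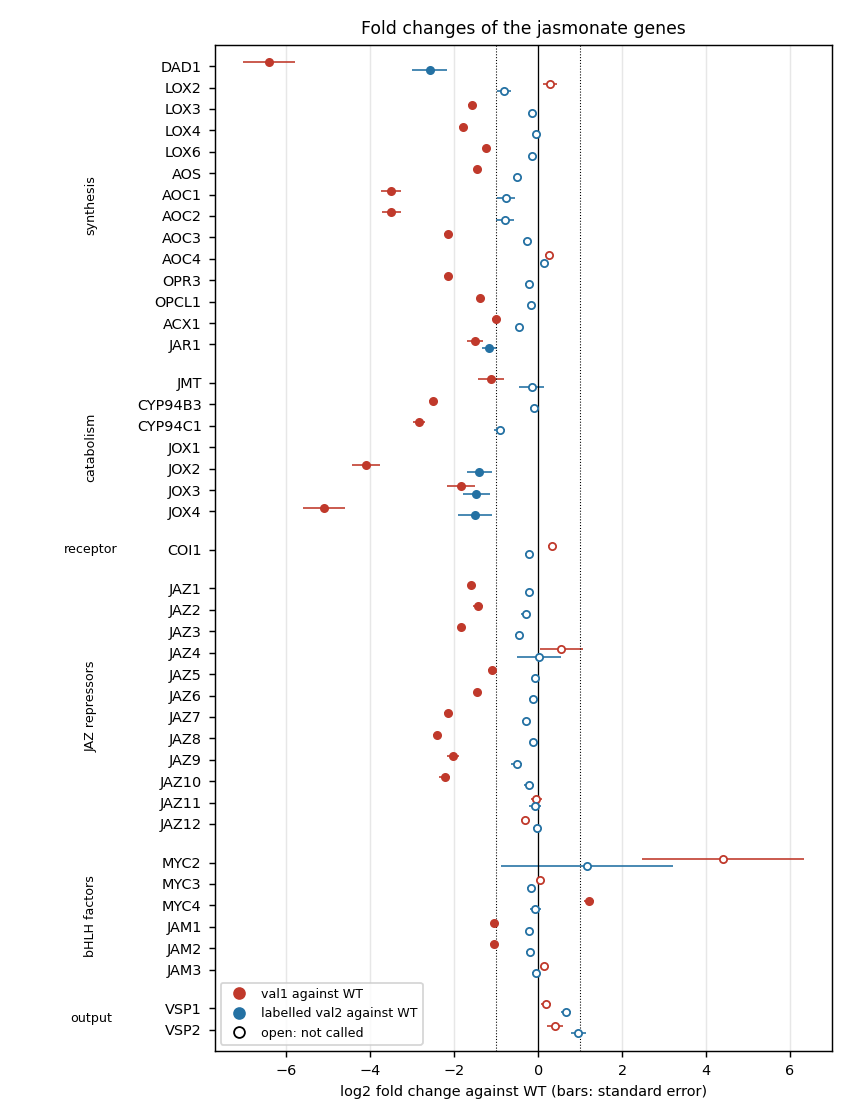
Log2 fold change of each jasmonate gene in *val1* against WT and in the libraries labelled *val2* against WT, with its standard error, ordered by role; filled points passed the test and dotted lines mark a 2-fold difference. Of the filled *val1* points 29 lie left of 0 and 1, *MYC4*, lies right of it, and the filled points of the libraries labelled *val2* are *DAD1*, *JAR1*, *JOX2*, *JOX3* and *JOX4*.

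Synthesis begins with the release of linolenic acid from membrane lipids. *DAD1* (AT2G44810), a phospholipase A1 known for its action in anthers, had 0 and 0.13 CPM in the *val1* libraries, 1.17 and 0.987 CPM in those labelled *val2*, and 4.49 and 8.44 CPM in WT. It was almost absent from *val1*, with 4 counts in all, against 374 counts in WT. The WT level was 92.5 times that of *val1*, with an exact 95% interval of 35.8 to 341 that covers counting error only. The fitted log2 fold change of -6.42 ± 0.63 (SE) rests on these few counts, with -10.5 without *val1* replicate 2, and the level in *val1* is known only as close to 0.

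The next step, the oxygenation of linolenic acid by 13-lipoxygenases, was split among its genes. *LOX3* (AT1G17420) had 649 and 585 CPM in the *val1* libraries, 1602 and 1757 CPM in those labelled *val2*, and 1799 and 1899 CPM in WT. *LOX4* (AT1G72520) had 347 and 327 CPM in the *val1* libraries, 1090 and 1182 CPM in those labelled *val2*, and 1255 and 1096 CPM in WT. *LOX6* (AT1G67560) had 77.0 and 80.8 CPM in the *val1* libraries, 169 and 168 CPM in those labelled *val2*, and 179 and 194 CPM in WT. All 3 fell in *val1*, by 1.58, 1.80 and 1.24 on the log2 scale, with *val1* libraries far below the others. *LOX2* (AT3G45140), the lipoxygenase known to make most of the jasmonate of wounded leaves, had 257 and 274 CPM in the *val1* libraries, 113 and 132 CPM in those labelled *val2*, and 174 and 261 CPM in WT. Its level in *val1* overlapped WT (log2 fold change 0.29 ± 0.17 SE, adjusted p = 0.185 by edgeR's quasi-likelihood test), and it stood above both libraries labelled *val2*.

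Because these values compare levels between genes, they were also taken per length, as TPM, in which a count is divided by the length of its gene and scaled by library. TPM carried no TMM factor. On log2(TPM + 0.1) the median of all genes in *val1* against WT was 0.29, beside 0.04 with TMM, so TPM levels are shifted between genotypes. The summed TPM of the 4 lipoxygenase genes was 754 and 721 in the *val1* libraries, 1550 and 1706 in those labelled *val2*, and 1736 and 1705 in WT. *LOX2* made up 19.7% and 22.1% of this sum in the *val1* libraries, 3.9% and 4.18% in those labelled *val2*, and 5.21% and 7.73% in WT. *LOX3* remained the most abundant of the 4 in every library, with between 45.9% and 55% of the sum.

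The oxygenated fatty acid is turned into OPDA by the allene oxide synthase *AOS* and the allene oxide cyclases. *AOS* (AT5G42650) had 472 and 493 CPM in the *val1* libraries, 912 and 967 CPM in those labelled *val2*, and 1284 and 1382 CPM in WT. The genotypes did not overlap, and *AOS* fell in *val1* by 1.47 on the log2 scale. *AOC1* (AT3G25760) had 19.2 and 28.6 CPM in the *val1* libraries, 133 and 187 CPM in those labelled *val2*, and 235 and 312 CPM in WT. *AOC2* (AT3G25770) had 17.4 and 27.5 CPM in the *val1* libraries, 128 and 167 CPM in those labelled *val2*, and 219 and 291 CPM in WT. *AOC3* (AT3G25780) had 251 and 288 CPM in the *val1* libraries, 932 and 1060 CPM in those labelled *val2*, and 1157 and 1247 CPM in WT. In these 3 genes *val1* was lowest and WT highest without overlap, and the log2 fold changes in *val1* against WT were -3.51 ± 0.23, -3.50 ± 0.23 and -2.16 ± 0.10 (SE). Over all genes tested, 33.7% had both *val1* libraries below both libraries labelled *val2*, and 30.8% had both of the latter below both WT libraries. The share with all 3 genotypes apart in this order was not computed.

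*AOC4* stood apart from the other cyclases. It had 84.7 and 88.8 CPM in the *val1* libraries, 85.1 and 75.5 CPM in those labelled *val2*, and 74.9 and 71.3 CPM in WT, a log2 fold change of 0.25 ± 0.08 (SE) in *val1* that was short of 2-fold. *AOC4* lies on chromosome 1, whereas *AOC1*, *AOC2* and *AOC3* are neighbours on chromosome 3, with 1.33 and 1.09 kb between them. Between adjacent tandem genes, at most 0.064% of the 50-base words of 1 gene recur in the other. *AOC1* and *AOC3* were not compared with each other. Words not unique in the genome were 2.2% of those of *AOC1*, 0.0832% of *AOC2* and 1.6% of *AOC3*, so that most of each gene could be counted apart. In TPM, *AOC4* was 25.9% and 23.2% of the summed cyclase level in the *val1* libraries, 7.59% and 5.74% in those labelled *val2*, and 4.99% and 4.11% in WT.

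**Figure D3:**
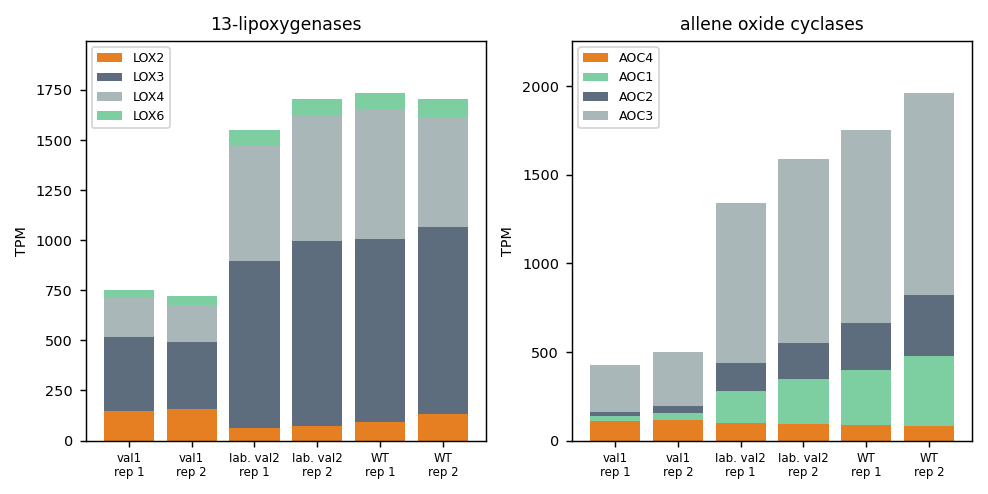
TPM of the 4 13-lipoxygenase genes (left) and the 4 allene oxide cyclase genes (right), stacked by gene, in each of the 6 libraries. The stacks of *val1* are the lowest in both families, while the orange part at the base, *LOX2* or *AOC4*, was 148.8 and 159.5 TPM for *LOX2* and 109.8 and 115.7 TPM for *AOC4* in *val1*, no lower in TPM than in WT. In CPM, which is TMM-scaled, *LOX2* in *val1* overlapped WT.

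The peroxisomal steps fell as well. *OPR3* (AT2G06050), the reductase of OPDA, had 249 and 261 CPM in the *val1* libraries, 909 and 1027 CPM in those labelled *val2*, and 1041 and 1210 CPM in WT. *OPCL1* (AT1G20510), a CoA ligase that activates its product, had 384 and 352 CPM in the *val1* libraries, 834 and 885 CPM in those labelled *val2*, and 976 and 951 CPM in WT. *ACX1* (AT4G16760), an acyl-CoA oxidase of beta-oxidation, had 132 and 141 CPM in the *val1* libraries, 197 and 205 CPM in those labelled *val2*, and 252 and 296 CPM in WT. *OPR3* fell in *val1* by 2.14, *OPCL1* by 1.39 and *ACX1* by 1.00 on the log2 scale, so that *ACX1* lay just at the 2-fold threshold, and its call was lost with library size alone (-0.79), with limma on log2(TPM + 1) and on log2(TPM + 0.1) (-0.82 in both), and without *val1* replicate 1 (-0.96) or WT replicate 2 (-0.89).

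*JAR1* (AT2G46370), which joins jasmonate to isoleucine, had 51.4 and 51.0 CPM in the *val1* libraries, 61.4 and 69.2 CPM in those labelled *val2*, and 111.5 and 181 CPM in WT. Both mutants were below WT, and the WT libraries differed from each other 1.62-fold. *JAR1* fell in *val1* (log2 fold change -1.51 ± 0.19 SE, adjusted p = 0.000227 by edgeR's quasi-likelihood test), the largest adjusted p of the 12 synthesis genes that fell.

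Catabolism had the lowest median, and its falls were in genes that hydroxylate the hormone and in *JMT*. *CYP94B3* (AT3G48520), a P450 that hydroxylates jasmonoyl-isoleucine, had 49.2 and 49.97 CPM in the *val1* libraries, 251 and 278 CPM in those labelled *val2*, and 266 and 301 CPM in WT. *CYP94C1* (AT2G27690), which oxidises the hydroxylated conjugate further, had 72.5 and 81.6 CPM in the *val1* libraries, 259 and 326 CPM in those labelled *val2*, and 489 and 619 CPM in WT. Their log2 fold changes in *val1* were -2.52 ± 0.09 and -2.85 ± 0.15 (SE), with no overlap between *val1* and any other library.

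The JOX oxygenases hydroxylate jasmonate itself, and *JOX4* and *JOX2* had the largest falls among the jasmonate genes after *DAD1*. *JOX2* (AT5G05600) had 14.2 and 26.4 CPM in the *val1* libraries, 116.5 and 149.7 CPM in those labelled *val2*, and 257 and 447 CPM in WT. *JOX4* (AT2G38240) had 2.03 and 6.10 CPM in the *val1* libraries, 41.2 and 61.4 CPM in those labelled *val2*, and 88.0 and 201 CPM in WT. *JOX3* (AT3G55970) had 7.54 and 9.22 CPM in the *val1* libraries, 8.58 and 13.2 CPM in those labelled *val2*, and 19.1 and 41.1 CPM in WT. The 3 genes fell in *val1* by 4.11, 5.11 and 1.85 on the log2 scale. The size of the fall rested on single libraries in *JOX4*, at -6.15 without *val1* replicate 2 and -4.39 without WT replicate 2, and in *JOX3*, at -1.19 without WT replicate 2. Unlike *JOX2* and *JOX4*, *JOX3* had libraries labelled *val2* that overlapped *val1*. The spread was wide within genotypes too, since WT replicate 2 was 1.74, 2.28 and 2.15 times as high as WT replicate 1 for *JOX2*, *JOX4* and *JOX3*.

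*JOX1* ran the other way at the edge of detection. It had 4 and 9 counts in *val1* and 0 counts in each of the other 4 libraries, which made it the only jasmonate gene that did not pass the filter. Over the group, its level in *val1*, from 13 counts, was 4.38 times the limit that 3 counts over the WT libraries set. The counting error of the 13 counts is not part of this ratio. With *JOX1* counted as the highest of the 7 catabolism genes, their median log2 fold change in *val1* would be that of *CYP94B3*, -2.52. *JMT*, the methyltransferase that makes methyl jasmonate, was also scarce, with 1.38 and 0.876 CPM in the *val1* libraries, 2.43 and 1.94 CPM in those labelled *val2*, and 2.22 and 2.65 CPM in WT. It fell in *val1* by 1.13 on the log2 scale (adjusted p = 0.0166 by edgeR's quasi-likelihood test), a call that was lost with library size alone (-0.91), with limma on log2(TPM + 1) (-0.59) and on log2(TPM + 0.1) (-0.92), without *val1* replicate 2 (-0.82) and without WT replicate 2 (-0.99).

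Signaling starts with the receptor, *COI1* (AT2G39940), which had 34.8 and 33.7 CPM in the *val1* libraries, 22.0 and 25.2 CPM in those labelled *val2*, and 26.5 and 28.2 CPM in WT. Its *val1* libraries were above the rest, with a log2 fold change of 0.32 ± 0.09 (SE, adjusted p = 0.0213 by edgeR's quasi-likelihood test) that was short of 2-fold.

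Of the 12 JAZ repressor genes, 9 fell in *val1*, each with both *val1* libraries below all others. With 2 libraries a genotype this is common. Over all genes tested, 34.3% had both *val1* libraries below both WT libraries, and 33.7% below both libraries labelled *val2*. *JAZ8* and *JAZ10* are known as repressors that resist or escape degradation in some forms. *JAZ8* (AT1G30135) had 43.4 and 40.3 CPM in the *val1* libraries, 195 and 217 CPM in those labelled *val2*, and 218 and 230.1 CPM in WT. *JAZ10* (AT5G13220) had 72.7 and 83.9 CPM in the *val1* libraries, 289 and 343 CPM in those labelled *val2*, and 335 and 399.7 CPM in WT. *JAZ7* (AT2G34600), whose promoter holds a G-box as that of *JAZ8* does, had 74.4 and 77.6 CPM in the *val1* libraries, 268 and 283 CPM in those labelled *val2*, and 311 and 365 CPM in WT. These were the largest falls of the family together with *JAZ9*, at -2.42 ± 0.09, -2.23 ± 0.12 and -2.15 ± 0.09 (SE) on the log2 scale. *JAZ9* (AT1G70700) had 153 and 191 CPM in the *val1* libraries, 452 and 526 CPM in those labelled *val2*, and 618 and 784 CPM in WT, a log2 fold change of -2.03 ± 0.15 (SE).

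*JAZ1*, *JAZ6* and *JAZ5* had smaller log2 fold changes. *JAZ1* (AT1G19180) had 356 and 399 CPM in the *val1* libraries, 954 and 1024 CPM in those labelled *val2*, and 1109 and 1177 CPM in WT. *JAZ6* (AT1G72450) had 315 and 347 CPM in the *val1* libraries, 804 and 844 CPM in those labelled *val2*, and 858 and 954 CPM in WT. *JAZ5* (AT1G17380) had 261 and 220.3 CPM in the *val1* libraries, 481 and 507 CPM in those labelled *val2*, and 512 and 527 CPM in WT. *JAZ1* fell by 1.60, *JAZ6* by 1.45 and *JAZ5* by 1.11 on the log2 scale, with the libraries labelled *val2* close under WT in each. *JAZ5* was under 2-fold with library size alone (-0.90), with limma on either TPM scale (-0.94 in both) and without *val1* replicate 2 (-0.99).

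*JAZ2* (AT1G74950) had 111 and 139.5 CPM in the *val1* libraries, 269.6 and 283 CPM in those labelled *val2*, and 325 and 354 CPM in WT. *JAZ3* (AT3G17860), with its pair of G-boxes, had 68.0 and 75.0 CPM in the *val1* libraries, 178 and 191 CPM in those labelled *val2*, and 247 and 263 CPM in WT. The 3 genotypes did not overlap in either gene, and the log2 fold changes in *val1* were -1.44 ± 0.11 and -1.84 ± 0.09 (SE). The remaining repressors, *JAZ4*, *JAZ11* and *JAZ12*, were not called. *JAZ4* was scarce, at 0.517 to 1.46 CPM over the 6 libraries, and *JAZ11* had 7.73 to 9.21 CPM. *JAZ12*, at 93.2 to 127.6 CPM, had a log2 fold change of -0.32 ± 0.09 (SE) in *val1*. Over the 10 JAZ genes in the TPM table, *JAZ12* made up 7.82% and 7.39% of the summed TPM in the *val1* libraries, 3.73% and 3.25% in those labelled *val2*, and 2.94% and 3.12% in WT.

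Position on the chromosome adds a description of 2 pairs. *JAZ5* lies 19.8 kb from *LOX3*, and *JAZ6* lies 31.9 kb from *LOX4*, each on chromosome 1. All 4 genes fell in *val1*, whereas of the 2 tested genes between *JAZ5* and *LOX3* neither was called, and of the 5 tested genes between *JAZ6* and *LOX4* none fell and 1 rose.

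The bHLH factors did not move as a group. *MYC4* (AT4G17880), an activator, had 29.5 and 28.9 CPM in the *val1* libraries, 12.98 and 11 CPM in those labelled *val2*, and 11.4 and 13.7 CPM in WT. It was higher in *val1* than in every other library, by 1.21 ± 0.13 (SE) on the log2 scale (adjusted p = 8.07e-05 by edgeR's quasi-likelihood test), and was the only jasmonate gene called higher. *MYC3* (AT5G46760), an activator of the same family, had 81.9 and 84.2 CPM in the *val1* libraries, 70.0 and 72.2 CPM in those labelled *val2*, and 76.4 and 85.0 CPM in WT, with *val1* inside the range of WT.

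*JAM1* and *JAM2* are bHLH repressors that compete with the MYC activators. *JAM1* (AT2G46510) had 163 and 168 CPM in the *val1* libraries, 292 and 297 CPM in those labelled *val2*, and 331 and 351 CPM in WT. *JAM2* (AT1G01260) had 27.9 and 31.0 CPM in the *val1* libraries, 49.4 and 57.7 CPM in those labelled *val2*, and 61.3 and 61.2 CPM in WT. Both fell in *val1*, by 1.05 (*JAM1*) and 1.06 (*JAM2*) on the log2 scale, near the threshold, and neither reached 2-fold with library size alone (-0.83 and -0.84), with limma on log2(TPM + 1) (-0.86 and -0.85) or on log2(TPM + 0.1) (-0.87 and -0.88). *JAM2* was also under 2-fold without *val1* replicate 1 (-0.99). Their relative *JAM3* (AT4G16430) had 31.2 and 34.8 CPM in the *val1* libraries, 29.5 and 27.8 CPM in those labelled *val2*, and 30.8 and 28.8 CPM in WT, a difference of 0.15 ± 0.09 (SE) in *val1* that did not pass the test.

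The counts of *MYC2*, the best known activator of the pathway, could not be interpreted. They were 0 and 2933 in the *val1* libraries, 323 and 0 in those labelled *val2*, and 110 and 12 in WT, so that replicates of 1 genotype differed more than genotypes did. Of the 3289 bases of *MYC2* (chr1:11798119-11801407, minus strand), 3241 (98.5%) lie within an exon of *AT1G32630* on the opposite strand, which held between 21985 and 36036 counts per library. The library kit keeps the strand, but whether the counting used it is not given in the sources used here, and reads of the 2 genes then cannot be told apart. The summed CPM of the pair was 891 and 889 in the *val1* libraries, 1108 and 1059 in those labelled *val2*, and 1174 and 1165 in WT. The fitted log2 fold change of *MYC2* in *val1* was 4.41 ± 1.93 (SE, adjusted p = 0.0926 by edgeR's quasi-likelihood test), and without *val1* replicate 2 it was -9.05. Without *MYC2* the median of the signaling genes in *val1* was -1.08. No other jasmonate gene shared more than 211 bases with a gene on the opposite strand.

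**Figure D4:**
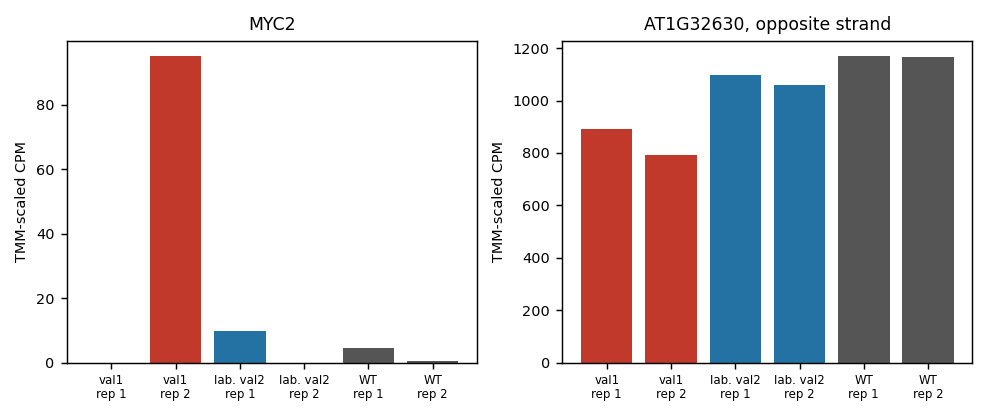
CPM of *MYC2* (left) and of *AT1G32630* on the opposite strand (right) in each of the 6 libraries, as bars coloured by genotype. *MYC2* has 95.2 CPM in *val1* replicate 2 and at most 9.94 CPM in any other library, and *AT1G32630* has 794 to 1170 CPM.

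The 2 output genes among the 42, *VSP1* and *VSP2*, were not called in *val1*. They encode vegetative storage proteins and are classic markers of the MYC branch of jasmonate responses. *VSP1* (AT5G24780) had 24.6 and 24.9 CPM in the *val1* libraries, 36.0 and 32.9 CPM in those labelled *val2*, and 19.0 and 24.3 CPM in WT. *VSP2* (AT5G24770) had 23.4 and 32.4 CPM in the *val1* libraries, 43.5 and 38.9 CPM in those labelled *val2*, and 17.6 and 24.7 CPM in WT. In *val1* neither was called by edgeR's quasi-likelihood test or by DESeq2, 0 of the 2 had an unadjusted p below 0.05, and the log2 fold changes were 0.19 ± 0.12 and 0.40 ± 0.18 (SE). The libraries labelled *val2* stood above all others for both genes. Of 12 further output genes outside the 42, described with the other genes of the pathway, 6 fell in *val1*, where 9.81% of all genes did.

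In the libraries labelled *val2* few jasmonate genes passed the 2-fold rule against WT, but most lay lower. The fitted log2 fold change was negative in 36 of the 41 genes, where it was in 10544 of the 21140 genes tested. Both libraries lay below both WT libraries in 28 of the 41, where they did in 30.8% of all genes. They lay above them in 3, where they did in 31.1%. By the 2-fold rule 5 of the 41 fell, where 2.27% of all genes tested did, and 0 rose by edgeR's quasi-likelihood test, where 0.918% did. DESeq2 called 4 lower and 0 higher, and at an unadjusted p below 0.05 in edgeR's test 21 were lower and 2 higher. By adjusted p alone 13 were lower, where 10% of all genes were, and 2 were higher, where 8.69% were. The 5 genes were *DAD1*, *JAR1*, *JOX2*, *JOX3* and *JOX4*, and all 5 had also fallen in *val1*, a comparison that uses the same WT libraries. Their log2 fold changes in the libraries labelled *val2* against WT were -2.58 ± 0.42, -1.16 ± 0.19, -1.41 ± 0.30, -1.47 ± 0.33 and -1.50 ± 0.41 (SE). These are genes in which the WT libraries themselves differed by between 1.62-fold and 2.28-fold, and *DAD1* alone was still called without WT replicate 2 or without *val2* replicate 1. The call of *JOX4* was also lost with DESeq2 (adjusted p = 0.176), without the filter on low counts in edgeR (0.0503) and with limma on either TPM scale (0.0655 and 0.0934), and those of *JOX2* and *JOX4* without *val2* replicate 2.

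Of the 14 synthesis genes 2 fell in the libraries labelled *val2*, with a median of -0.36, and of the 6 tested catabolism genes 3 fell, with a median of -1.16. Of the 19 signaling genes 0 were called by edgeR's quasi-likelihood test or by DESeq2, with 7 lower and 0 higher at an unadjusted p below 0.05 and a median of -0.18. The median over all genes tested was 0.00016. Of the synthesis genes that were short of 2-fold, *AOC1* and *AOC2* had log2 fold changes of -0.77 and -0.79 (adjusted p of 0.0331 and 0.0305 by edgeR's quasi-likelihood test), and that of *LOX2* was -0.82 ± 0.17 (SE, adjusted p = 0.0107 by edgeR's quasi-likelihood test) and passed 2-fold without WT replicate 1 (-1.09). *CYP94C1*, at -0.92 ± 0.14 (SE), passed it without WT replicate 1 (-1.08) and without *val2* replicate 2 (-1.10), where *AOC1* did as well (-1.04). *VSP1* and *VSP2* were higher by 0.67 ± 0.12 and 0.96 ± 0.18 (SE), with adjusted p of 0.00695 and 0.00844 by edgeR's quasi-likelihood test, and short of 2-fold. *VSP2* passed 2-fold with library size alone (1.04), with limma on log2(TPM + 1) (1.01) and on log2(TPM + 0.1) (1.04), without *val2* replicate 2 (1.04) and without WT replicate 2 (1.23).

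The 4 leaf markers were lower in the libraries labelled *val2* by adjusted p alone, where 10% of all genes were, and short of 2-fold. Their log2 fold changes against WT were -0.25 to -0.57, and their summed CPM was 11910 and 11000 in the libraries labelled *val2*, against 15190 and 14300 in WT. The part of this in the values of the jasmonate genes was not tested. In *val1* the sum was 15890 and 14890 CPM, which overlaps WT.

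The difference between the mutants was tested directly. In *val1* against the libraries labelled *val2*, 22 of the 41 jasmonate genes fell, where 6.94% of all genes tested did, and 2 rose, *LOX2* and *MYC4*, where 5.17% did. By adjusted p alone 30 were lower, where 18% of all genes were, and 4 were higher, where 17.7% were. The falls were 9 of 14 synthesis genes with a median of -1.34, 4 of 6 tested catabolism genes with a median of -2.17 and 9 of 19 signaling genes, all of them JAZ genes, with a median of -0.86. *LOX2* was higher in *val1* by 1.11 ± 0.17 (SE) on the log2 scale, and without *val2* replicate 1 it was at 1.00 and not called. Of the falls, those of *LOX6*, *JAZ5*, *JAZ2* and *DAD1* were each lost under at least 1 alternative. All 22 were also among the 29 that fell against WT, a comparison that uses the same *val1* libraries. The other 7 of the 29 were *AOS*, *ACX1*, *JAR1*, *JMT*, *JOX3*, *JAM1* and *JAM2*. Of these *AOS* differed by -0.96 ± 0.07 (SE), whereas *JAR1* and *JOX3* differed by -0.35 ± 0.19 and -0.37 ± 0.34 (SE), with adjusted p of 0.184 and 0.441 by edgeR's quasi-likelihood test.

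**Figure D5:**
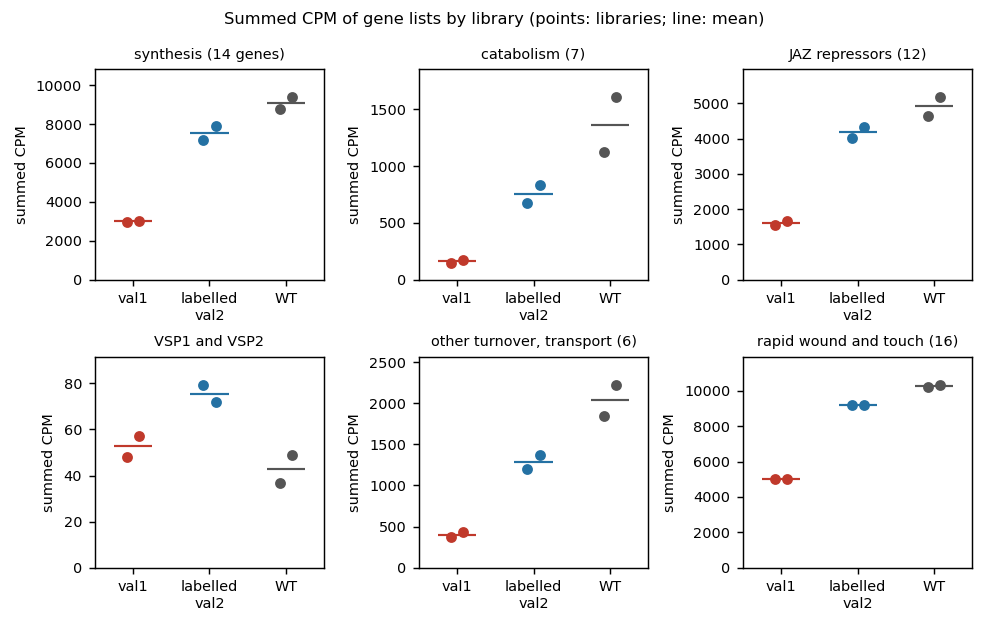
Summed CPM of 6 gene lists in each library (points) with the mean of each genotype (lines), for *val1*, labelled *val2* and WT from left to right. Synthesis, catabolism, JAZ and turnover genes are lowest in *val1* and highest in WT, *VSP1* and *VSP2* are highest in the libraries labelled *val2*, and the rapid wound and touch genes are at 5039 and 5017 CPM in *val1*, below the other 4 libraries.

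Summed over genes, the classes gave the same order of libraries. The 14 synthesis genes held 2991 and 2998 CPM in the *val1* libraries, 7168 and 7882 CPM in those labelled *val2*, and 8763 and 9400 CPM in WT. The 7 catabolism genes held 147 and 174.5 CPM in the *val1* libraries, 678 and 830.4 CPM in those labelled *val2*, and 1122 and 1611 CPM in WT. The 12 JAZ genes held 1556 and 1678 CPM in the *val1* libraries, 4019 and 4337 CPM in those labelled *val2*, and 4650 and 5190 CPM in WT. In all 3 sums *val1* was lowest and WT highest, with no overlap. The WT libraries differed most in catabolism. Replicate 2 was above replicate 1 in most of the 41 tested jasmonate genes of every genotype. The counts were 31 in *val1*, 29 in the libraries labelled *val2* and 34 in WT. The median distance between WT replicates was 0.22 on the log2 scale, beside 0.13 over all genes.

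Genes that respond rapidly to wounding and touch moved with the jasmonate genes in *val1*. Of 16 such genes 8 fell in *val1*, where 9.81% of all genes tested did, and 1 rose, where 5.89% did, with a median of -0.99. By adjusted p alone 14 were lower, where 22.1% of all genes were, and 2 were higher, where 23.6% were. *TCH3*, a calmodulin-like touch gene, had 333 and 357 CPM in the *val1* libraries, 993 and 1123 CPM in those labelled *val2*, and 1721 and 1848 CPM in WT. *ERF5*, the gene that rose, had 116 and 119 CPM in the *val1* libraries, 58.0 and 44.0 CPM in those labelled *val2*, and 41.6 and 43.7 CPM in WT. The summed CPM of the 16 was 5039 and 5017 in the *val1* libraries, 9229 and 9197 in those labelled *val2*, and 10230 and 10350 in WT. In the libraries labelled *val2* against WT, 0 of the 16 were called by edgeR's quasi-likelihood test or by DESeq2, with 2 lower and 4 higher at an unadjusted p below 0.05. The 4 vascular markers held 69.2 and 96.7 CPM in the *val1* libraries, 88.5 and 84.3 CPM in those labelled *val2*, and 134 and 129.6 CPM in WT. In *val1* 0 of the 4 were called by edgeR's quasi-likelihood test or by DESeq2. By adjusted p alone 3 were lower, where 22.1% of all genes were, with log2 fold changes of the 4 between -0.85 and -0.00056. In the libraries labelled *val2* 1 of the 4 fell, where 2.27% of all genes did. The part of either list in the jasmonate values was not tested.

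A list of other genes of the pathway or of related enzyme families held 41 genes. In *val1* 17 of them fell, where 9.81% of all genes tested did, and 3 rose, where 5.89% did, with a median of -0.56. Those of hormone turnover and transport fell in 5 of 6 cases, with a median of -2.63. *CYP94B1*, a further hydroxylase of jasmonoyl-isoleucine, had 0.648 and 2.56 CPM in the *val1* libraries, 12.4 and 15.7 CPM in those labelled *val2*, and 28.7 and 52.3 CPM in WT. *ST2A*, a sulfotransferase of hydroxyjasmonate, had 4.94 and 8.24 CPM in the *val1* libraries, 37.9 and 46.6 CPM in those labelled *val2*, and 69.7 and 145.9 CPM in WT. The amidohydrolase genes *ILL6* and *IAR3* fell in *val1* by 3.01 and 2.25 on the log2 scale. As with *CYP94C1* and *JOX2*, the 3 genotypes stood apart in order in each of these 4 genes. The share of all genes with this order was not computed. Both *val1* libraries lay below both libraries labelled *val2* in 33.7% of all genes tested. Both of the latter lay below both WT libraries in 30.8%.

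A further 13 genes were listed with precursor supply and beta-oxidation. The 9-lipoxygenase genes *LOX1* and *LOX5* were among them, although the synthesis step is that of 13-lipoxygenases. Of the 13 genes, 3 fell in *val1*, where 9.81% of all genes did, with a median of -0.24. These were *OPR1*, a reductase of the *OPR3* family, *FAD7*, a plastid desaturase that makes linolenic acid, and *LOX5*, with log2 fold changes of -1.88, -1.83 and -1.37. Among 10 signaling partners 3 fell and 1 rose, beside 9.81% and 5.89% of all genes. The adaptor gene *NINJA*, the co-repressor gene *TPL*, the Mediator gene *MED25* and the ubiquitin ligase subunit genes *ASK1* and *CUL1* were not called, with log2 fold changes between -0.39 and 0.08. *MYB21*, an activator known from stamens, had 0.203 and 0.13 CPM in the *val1* libraries, 1.45 and 2.11 CPM in those labelled *val2*, and 3.73 and 4.56 CPM in WT, and it fell by 4.64 on the log2 scale. *MYC5*, a bHLH activator related to *MYC4*, had 7.29 and 5.84 CPM in the *val1* libraries, 0.861 and 0.987 CPM in those labelled *val2*, and 0.795 and 0.517 CPM in WT. It rose in *val1* by 3.33 ± 0.29 (SE).

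Of the 12 further output genes 6 fell in *val1*, where 9.81% of all genes did, and 2 rose, where 5.89% did, with a median of -0.97. *NAC055* and *TAT3*, a NAC factor and an aminotransferase known to respond to jasmonate, fell by 3.35 and 2.92 on the log2 scale. *ORA47*, an AP2/ERF factor known to activate synthesis genes, had 150.0 and 149 CPM in the *val1* libraries, 85.2 and 56.3 CPM in those labelled *val2*, and 59.9 and 64.6 CPM in WT. It rose in *val1* by 1.26, while 12 of the 14 synthesis genes fell. *ORA59*, an ERF activator of defensin genes, rose by 1.08, and the defensin gene *PDF1.2* fell by 2.58. In the libraries labelled *val2*, 4 of the 41 other pathway genes fell, where 2.27% of all genes did, and 1 rose, where 0.918% did. The gene that rose, *CORI3*, a jasmonate-induced lyase gene, had 130.3 and 147 CPM in these libraries, against 52.4 and 81.5 CPM in WT.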

How the data were processed

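RNA-seq was carried out by the authors on 6 libraries, 2 each of *val1*, *val2* and WT, as the genotype on their labels gives. Per the labels and the Methods, reads of a stranded poly(A) kit were trimmed with cutadapt, mapped to TAIR10 with STAR and summed per gene by StringTie. The deposited table of estimated counts holds whole numbers without normalization. TPM values, which the authors deposited for 16383 genes, rest on the same estimates after division by length and scaling of each library. They served for comparing levels between genes and as an alternative. Versions are not given in the sources used here. In the counts, 77 entries without a gene identifier, with at most 0.00266% of the counts of a library, were left out. Depth was 22635808 to 33474422 counts per library. Counts estimated from coverage are not independent molecules, so that intervals cover counting error only.

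The counts were tested with edgeR 4.0.16 in R 4.3.3 (filterByExpr, TMM factors between 0.925 and 1.09, 1 quasi-likelihood fit of all 6 libraries with a mean per genotype, 3 residual degrees of freedom). P-values were adjusted by the Benjamini-Hochberg method over 21140 genes, and a gene was called where its adjusted p was below 0.05 and it differed at least 2-fold. Standard errors were computed from fold changes and F statistics. The script was tested on simulated data. Between replicates the mean chi-square per gene was 9.51 to 12.04, above counting error, so that no library was counted as a repeat of another. The deviations of same-numbered replicates had correlations between 0.0309 and 0.0406 across genes, so the numbers showed no pairing of the libraries over all genes. Pairing within the jasmonate genes was not tested.

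The members and all gene lists were chosen with earlier results of these data known. All members are named, with values per library for those called in *val1* against WT or *val2* against WT, or higher in any comparison, and other genes only from the lists, up to 4 of those called with the largest change in a list. A few further genes were named after their values were seen, for their roles. Per-library values of *LOX2*, *AOC4*, *COI1*, *MYC2*, *MYC3*, *JAM3*, *VSP1* and *VSP2* were added in the same way. Promoters and positions come from RefSeq TAIR10.1, in which 38 of the 42 member symbols were found and all members matched by identifier. DESeq2 1.42.0, limma 3.58.1 on log2 TPM, other scalings and filters, the replicate block, halved counts, no fold threshold and leaving out each library were the alternatives. Python 3.11.15 and matplotlib 3.10.9 drew the plots. Of the 5 meristem and 5 flower markers listed, 4 and 3 were found in the counts, and *WUS*, *AP3* and *AG* were not analysed here. The 3 flower markers found together held at most 1.36 CPM in any library.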

Additional observations from a re-analysis of the deposited data

How the results depend on the processing

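Calls depended mainly on the 2-fold threshold and, in the libraries labelled *val2*, on single libraries. Of the 29 genes that fell in *val1* against WT, 24 were called under every alternative that could test them, and *ACX1*, *JMT*, *JAZ5*, *JAM1* and *JAM2* were not. The corresponding counts were 18 of 22 in *val1* against the libraries labelled *val2*, and 1 of 5, *DAD1*, in those libraries against WT. Leaving out each library in turn gave between 27 and 29 falls and 1 to 2 rises in *val1* against WT, 1 to 7 falls and 0 to 1 rises in the libraries labelled *val2* against WT, and 21 to 23 falls and 1 to 3 rises in *val1* against the libraries labelled *val2*.

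With library size alone the median of all genes in *val1* against WT was 0.25, against 0.04 with TMM, the synthesis median was -1.33 and the signaling median -0.84. The synthesis median was -1.35 on log2(TPM + 1) and -1.36 on log2(TPM + 0.1), where the median of all genes was 0.29. Rises in the libraries labelled *val2* were 1 gene, *VSP2*, with library size alone and with either TPM scale. Without the filter on low counts *JOX1* was tested and 2 genes rose in *val1* against WT. By adjusted p alone 3 genes rose in *val1* against WT, 13 fell and 2 rose in the libraries labelled *val2*, and 4 rose in *val1* against the libraries labelled *val2*. With the replicate number as a block, which showed no pairing over all genes, the counts were 29 and 1, 5 and 0, and 22 and 2, and no call changed.

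Signs changed where values lay near 0 or where *MYC2* was concerned. In *val1* against WT, *JAZ11* was 0.172 with library size alone, and leaving out single libraries gave -0.115 to 0.0346 for *JAZ11*, -0.0344 to 0.12 for *MYC3* and -9.05 to 6.93 for *MYC2*. In the libraries labelled *val2* against WT, library size alone turned *LOX4* (0.0265), *JAZ5* (0.00576), *JAZ11* (0.00217), *JAZ12* (0.0375), *MYC4* (0.00701) and *JAM3* (0.0211). On log2(TPM + 1) *LOX4* was 0.015, *JAZ12* 0.0259 and *JAM3* 0.00526, and on log2(TPM + 0.1) *LOX4* was 0.015, *JAZ12* 0.0261, *JAM3* 0.00549 and *MYC2* -0.147. *JAZ4* was -0.0278 with DESeq2 and -0.00885 with its size factors. Leaving out single libraries gave -0.144 to 0.0517 for *LOX4*, -0.618 to 0.707 for *JAZ4*, -0.176 to 0.0208 for *JAZ11*, -0.159 to 0.0882 for *JAZ12*, -8.99 to 3.69 for *MYC2* and -0.195 to 0.0689 for *MYC4*. In *val1* against the libraries labelled *val2* it gave -0.0645 to 0.132 for *JAZ11* and -10.2 to 13.4 for *MYC2*. The cause was not tested. With 1 library left in a genotype, its spread was assumed to be that of the others. At this depth the levels of *DAD1* in *val1* and of *JOX1* outside *val1* were not measurable beyond their limits.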
